A study of Mus musculus with 2 samples.

Results

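The genes that build and run the DNA replication fork were examined in liver mRNA sequencing of iFIRKO and control mice. The list holds 51 genes, chosen by symbol for their known roles in licensing origins, unwinding and copying DNA, supplying deoxynucleotides and guarding the fork. All 51 were found once each among the 53241 gene symbols of both libraries. The data are 1 library per genotype, from livers of male mice that were 7 weeks old and received tamoxifen at 100 mg/kg on 5 days, with tissue taken 3 days after the last dose. The iFIRKO mouse is labelled Adipoq-CreERT2; Insr flox/flox, so that tamoxifen removes the insulin receptor gene from cells in which the adiponectin promoter drives Cre, the adipocytes, and the liver itself keeps the gene. The control is labelled WT, whereas the methods of the study describe control mice as IR flox/flox without the Cre, and both genotypes received tamoxifen. The sources do not state whether a library holds 1 mouse or a pool. With 1 library per genotype there is no replicate check, so every difference below compares these 2 libraries and not the genotypes.

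Replication is prepared in G1, when the origin recognition complex, Cdc6 and Cdt1 place the MCM2-7 ring on DNA, and is started in S phase, when Cdc45 and the GINS complex turn the ring into a moving helicase. Primase and the polymerases then copy the strands behind a sliding clamp, and ribonucleotide reductase and thymidine enzymes supply the building blocks. Most of these genes are known targets of E2F transcription factors, whereas many mitotic genes are switched on later, in G2, through other promoter elements. Adult hepatocytes are mostly quiescent and return to the cycle when the liver regenerates.

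The values are normalized read counts, returned from the deposited log2 scale, and the libraries summed to 42003900 (control) and 41579630 (iFIRKO) normalized reads. *Insr* itself, the gene deleted in adipocytes, stood at 4246 normalized reads in control liver and 3692 in iFIRKO liver. A log2 ratio is that of the iFIRKO value to the control value and carries a 95% exact Clopper-Pearson interval on estimated read pairs, which covers counting error only. A log2 fold change is the same with a pseudocount of 4.18 normalized reads in each library, and a gene was called higher or lower where that fold passed 1.5, the threshold used in the study. Genes that reached 41.8 normalized reads in 1 or both libraries are called tested here, although no statistical test was possible.

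Of the 51 replication genes, 50 were tested, and 41 of these lay within 1.5-fold. The 4 more than 1.5-fold higher were *Rrm2*, *Rfc4*, *Gins2* and *Gins3*, and the 5 more than 1.5-fold lower were *Dtl*, *Clspn*, *Uhrf1*, *Pola1* and *Tk1*. The 4 higher genes are 8% of the tested members, against 4.46% of all 13390 genes tested, and the 5 lower genes are 10%, against 7.29% of all genes tested. These are counts of 4 and 5 genes, and nothing particular to the list is read from them. The median log2 fold change was -0.09 over the 50 tested members and 0.01 over all genes tested, with 19 members above 0 and 31 below. Of all 13390 genes tested, 6871 lay above 0 and 6519 below. Summed over the 51 genes, 22461 normalized reads in control liver stood against 21289 in iFIRKO liver (log2 ratio -0.08, interval -0.12 to -0.04), beside a ratio of -0.01 for the summed reads of all genes. Of the 50 tested members, 29 had a log2 fold change within 0.25 of 0, and over all genes tested the quartiles were -0.19 and 0.17. The interval of the ratio lay above 0 for 4 of the 51 genes, below 0 for 8 and held 0 for 39. Intervals were not counted over all genes, so nothing particular to the list is read from these numbers either.

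**Figure D1:**
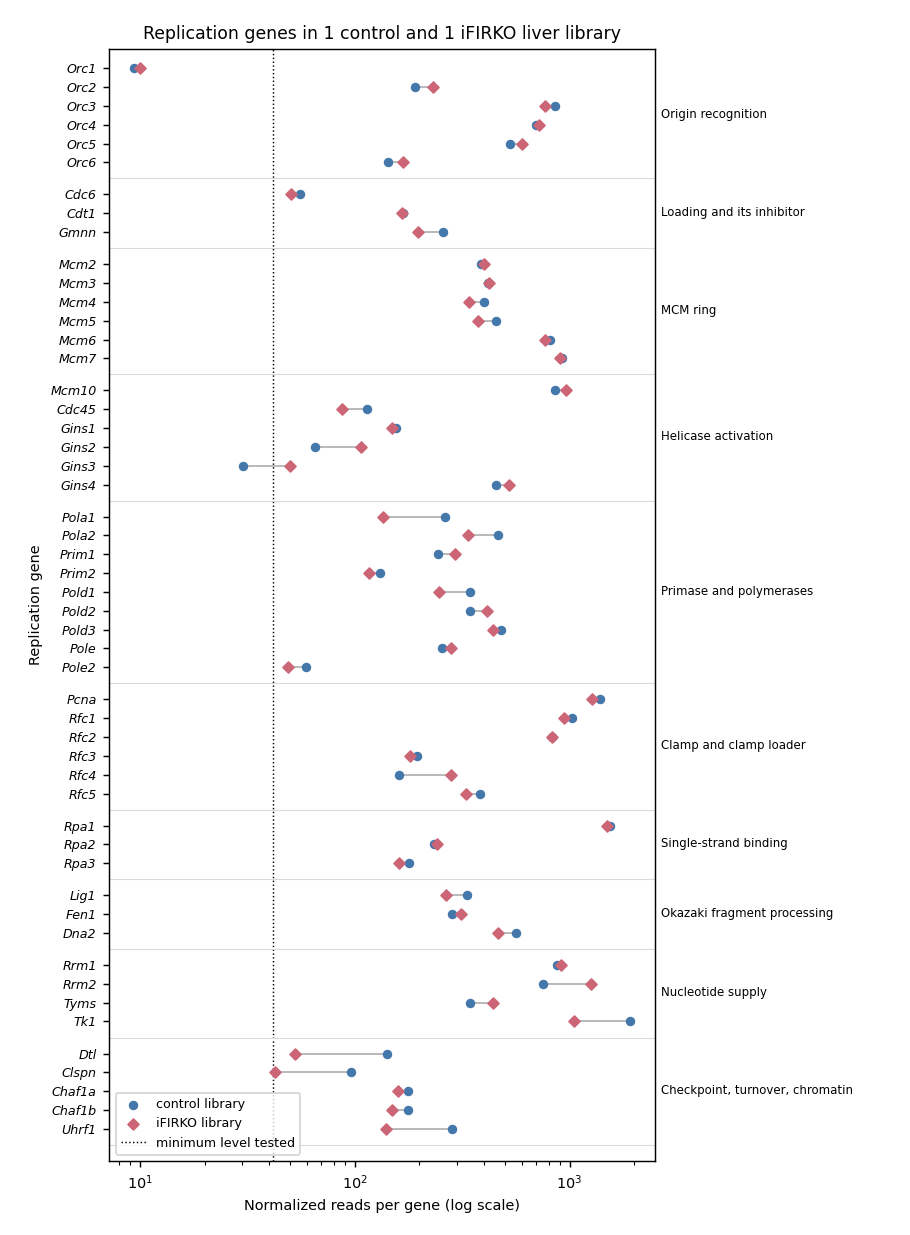
Normalized reads (log axis) of each of the 51 replication genes in the control library (circles) and the iFIRKO library (diamonds), ordered by role, with the minimum of 41.8 reads as a dotted line. The paired symbols nearly coincide for most genes, and *Dtl*, *Clspn*, *Uhrf1*, *Pola1* and *Tk1* show the widest gaps with the control library on the right.

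The origin recognition complex, 6 subunits that mark origins on DNA, differed little between the libraries. Its largest subunit, *Orc1*, had only 9.39 and 10.1 normalized reads (control first and iFIRKO next, as for every pair of values that follows), about 5 read pairs in each, and was the 1 member below the minimum. The other 5 subunits ranged from 142 to 859 normalized reads in control liver. Their log2 ratios ran from -0.16 for *Orc3* to 0.28 for *Orc2*, and the interval of each held 0. Per kilobase of exon, *Orc3* stood at 141 normalized reads and *Orc1* at 2.70 in the control library, a 52.3-fold spread within 1 complex. *Orc1* is the subunit whose protein level is known to rise and fall through the cell cycle. Of *Orc2*, 29.8% of the exon bases also lie in exons of *Nif3l1* on the opposite strand (530 and 694 normalized reads).

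The intervals of the 3 loading genes all held 0, which does not show them to be level. *Cdt1*, which brings the MCM ring to the origin, had 168 and 166 normalized reads (log2 ratio -0.02, interval -0.47 to 0.44). *Cdc6*, the ATPase that works with it, was scarce at 55.7 and 50.3, and its interval from -0.98 to 0.69 leaves a 1.5-fold difference either way undetectable at this depth. *Gmnn*, geminin, the protein that binds Cdt1 and blocks a second round of loading, had 257 and 197 (log2 ratio -0.39, interval -0.77 to 0.01). All 3 lay below 0 and none passed 1.5-fold.

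The 6 subunits of the MCM2-7 ring, the core of the replicative helicase, had nearly the same level in both livers. *Mcm7* had 920 and 905 normalized reads, *Mcm6* 810 and 765, and *Mcm3* 417 and 424. *Mcm2* had 388 and 399, *Mcm4* 402 and 342, and *Mcm5* 453 and 375. No subunit passed 1.5-fold and each interval held 0, with the lowest log2 ratio at -0.27 for *Mcm5*. Their summed reads gave a log2 ratio of -0.08 (interval -0.18 to 0.02), an interval that leaves out 1.5-fold in either direction. Per kilobase the subunits spread only 3.73-fold in the control library, from 55.8 for *Mcm2* to 208 for *Mcm7*, although the ring holds 1 copy of each. The exon length used for *Mcm2* was 6956 bases, against 3371 for its longest coding transcript. Its place as the lowest therefore depends on the length chosen. Part of *Mcm7* is copied in a processed pseudogene, with 26.0% of the 50-base stretches of its longest coding transcript shared, so its own reads are less certain.

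The factors that activate the ring held members above and below 0. *Mcm10*, which helps start the helicase, had 854 and 963, a log2 ratio of 0.17 (interval -0.02 to 0.36). *Cdc45*, which rides with the ring, had 114 and 87.2, a log2 ratio of -0.39 (interval -0.99 to 0.21). Neither passed 1.5-fold. Of the 4 GINS subunits, which hold Cdc45 and the ring together, *Gins2* (chromosome 8 of GRCm38, 120578633 to 120589304) had 65.6 and 107 normalized reads (log2 ratio 0.70, interval 0.05 to 1.38). *Gins3* (chromosome 8, 95633453 to 95645060) had 30.2 and 50.3 (log2 ratio 0.74, interval -0.22 to 1.78). *Gins3* reached the minimum in the iFIRKO library alone, so its place among the tested genes depended on its being higher there, and its interval holds 0. In *Gins2*, 67.3% of the exon bases also lie in exons of *Gse1* on the opposite strand, which had 1026 and 1440 normalized reads. The libraries were stranded but the counting is not stated to have used strand, so reads of *Gins2* and *Gse1* cannot be told apart here. *Gins1* with 156 and 149 and *Gins4* with 457 and 522 stayed within 1.5-fold. Per kilobase *Gins4* was at 339 normalized reads and *Gins3* at 11.1 in the control library, a 30.4-fold spread among proteins that act as one complex.

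**Figure D2:**
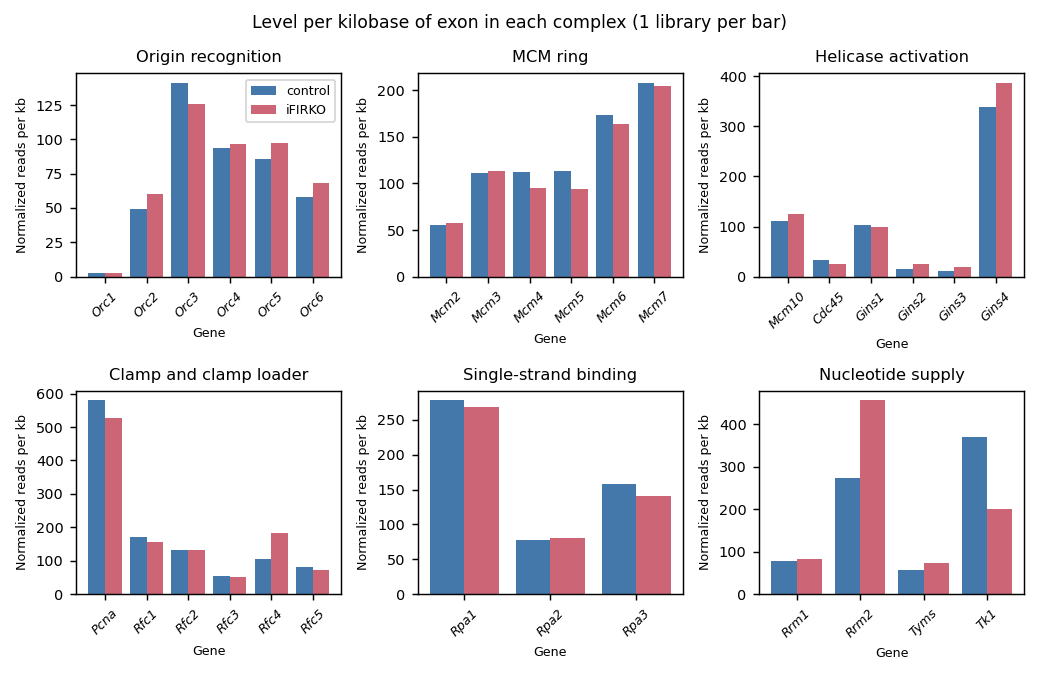
Normalized reads per kilobase of exon for the members of 6 role groups, with the control library in blue and the iFIRKO library in red, each bar being 1 library with no error bar. The axes start at 0 and differ between panels. *Rrm2* and *Rfc4* stand higher and *Tk1* lower in iFIRKO. In each panel the highest and lowest members differ by more than the libraries do for any member, although some members lie closer together.

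Among primase and the replicative polymerases, 1 of 9 genes was more than 1.5-fold lower and none was more than 1.5-fold higher. *Pola1*, the catalytic subunit of DNA polymerase alpha (chromosome X, 93304767 to 93632155), stood at 264 normalized reads in control liver and 135 in iFIRKO liver (log2 ratio -0.97, interval -1.42 to -0.54). Its partner *Pola2* had 462 and 336 (log2 ratio -0.46), within 1.5-fold although the interval, -0.76 to -0.17, leaves out 0. The primase subunits that bind them, *Prim1* (244 and 294) and *Prim2* (131 and 117), lay on either side of 0 with intervals that hold it. Of the 4 subunits of the polymerase alpha and primase complex, *Pola1* alone passed 1.5-fold. *Pold1*, the catalytic subunit of the lagging-strand polymerase delta, had 344 and 246, a log2 ratio of -0.48 (interval -0.83 to -0.14). Its partners *Pold2* (343 and 414) and *Pold3* (481 and 441) differed less, with intervals that hold 0. The leading-strand enzyme *Pole* had 256 and 280, and its partner *Pole2* had 59.7 and 48.9. Summed over the 9 genes of this group the log2 ratio was -0.16 (interval -0.28 to -0.05).

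The sliding clamp and its loader stayed within 1.5-fold with 1 exception. *Pcna*, the clamp that tethers polymerases to DNA, had 1392 and 1268 normalized reads (log2 ratio -0.13, interval -0.29 to 0.02). Of the 5 loader subunits, *Rfc1*, *Rfc2*, *Rfc3* and *Rfc5* lay between -0.21 and -0.01, and their intervals hold 0. *Rfc4* (chromosome 16, 23113943 to 23127737) stood at 160 normalized reads in control liver and 280 in iFIRKO liver (log2 ratio 0.81, interval 0.39 to 1.21). Its neighbour on the opposite strand, *Eif4a2*, overlaps 12.7% of the exon bases of *Rfc4* and had 9900 and 8313 normalized reads. The counting is not stated to have used strand. How many reads of either gene lie in the shared bases is not known from gene totals. Per kilobase *Rfc4* stood at 104 and 183, against 171 and 157 for *Rfc1*, so *Rfc4* lay below *Rfc1* in the control library and above it in the iFIRKO library. For *Pcna*, 31.8% of the 50-base stretches are shared with *Pcna-ps2*, a processed pseudogene listed at 106 and 82.0 normalized reads.

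All 3 subunits of the single-strand binding protein RPA, which coats unwound DNA, lay within 1.5-fold. *Rpa1* had 1550 and 1497 normalized reads, *Rpa2* 234 and 242, and *Rpa3* 179 and 161. The log2 ratio of the 3 summed, mostly *Rpa1*, was -0.05 (interval -0.18 to 0.08). The interval of *Rpa3* alone, -0.60 to 0.30, does not leave out a 1.5-fold decrease. Of the enzymes that finish Okazaki fragments, the flap nuclease *Fen1* had 285 and 312, the nuclease and helicase *Dna2* 562 and 466 and the ligase *Lig1* 334 and 266. None passed 1.5-fold, and *Dna2* alone had an interval without 0, from -0.52 to -0.01. In *Fen1*, 78.8% of exon bases are shared with the antisense gene *Gm10143*, which was listed at 0 and 2.01 normalized reads.

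The nucleotide enzymes held 1 higher and 1 lower gene. *Rrm2*, the small subunit of ribonucleotide reductase that makes deoxynucleotides in S phase (chromosome 12, 24708241 to 24714146), stood at 755 normalized reads in control liver and 1264 in iFIRKO liver. Its log2 ratio was 0.74 with an interval from 0.56 to 0.93. The large subunit *Rrm1* had 871 and 915 (log2 ratio 0.07), and its interval, -0.12 to 0.26, does not overlap that of *Rrm2*. *Tyms*, thymidylate synthase, which makes thymidylate from deoxyuridylate, had 343 and 439, a log2 ratio of 0.36 (interval 0.06 to 0.65) within 1.5-fold. *Tk1*, the cytosolic thymidine kinase that salvages thymidine (chromosome 11, 117815526 to 117826092), stood at 1920 normalized reads in control liver and 1044 in iFIRKO liver. Its log2 ratio was -0.88 with an interval from -1.03 to -0.72. *Afmid*, a gene of tryptophan breakdown that is transcribed the other way and shares 83 exon bases with *Tk1*, had 8709 and 5815, a log2 fold change of -0.58. Both neighbours had fewer reads in the iFIRKO library, and how many reads of either gene lie in the shared bases is not known from gene totals.

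The fork checkpoint, licensing turnover and chromatin genes held 3 of the 5 lower members, and all 5 genes of this group lay below 0. *Dtl*, the ubiquitin ligase adaptor that removes Cdt1 once S phase has begun (chromosome 1, 191537356 to 191575544), stood at 141 normalized reads in control liver and 52.9 in iFIRKO liver (log2 ratio -1.42, interval -2.14 to -0.76). This log2 ratio is the farthest from 0 of the 51 and rests on an estimated 71 and 26 read pairs. *Clspn*, claspin, which carries the replication stress signal to Chk1 (chromosome 4, 126556935 to 126593903), had 95.7 and 42.6, a log2 ratio of -1.17 (interval -1.99 to -0.41). *Uhrf1*, which recruits the maintenance methyltransferase to newly copied DNA (chromosome 17, 56303321 to 56323486), had 283 and 139, a log2 ratio of -1.03 (interval -1.47 to -0.61). Of *Uhrf1*, 18.9% of the 50-base stretches are shared with other genes, chiefly a processed pseudogene listed at 0 in both libraries. *Chaf1a* (177 and 159) and *Chaf1b* (176 and 149), subunits of the assembly factor that places histones behind the fork, stayed within 1.5-fold. Of *Chaf1a*, 52.5% of the exon bases also lie in exons of *Ubxn6* on the opposite strand (1405 and 1436 normalized reads). Summed over the 5 genes the log2 ratio was -0.69 (interval -0.92 to -0.47).

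**Figure D3:**
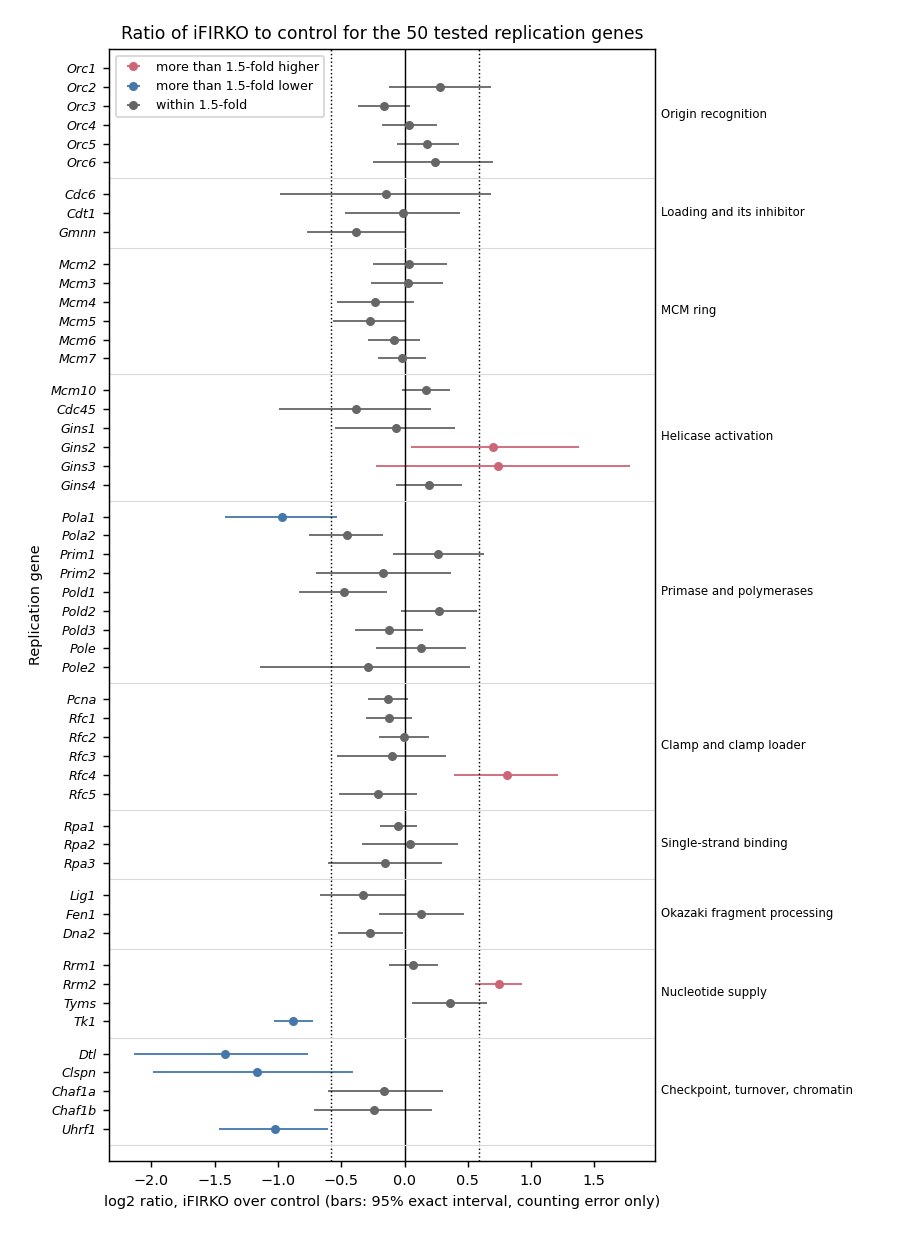
Log2 ratio of iFIRKO to control for the 50 tested replication genes by role, with 95% exact intervals that cover counting error only and dotted lines at 1.5-fold. The MCM ring, the RPA subunits and the origin recognition subunits cluster near 0. *Rfc4* (0.81), *Rrm2* (0.74), *Gins3* (0.74) and *Gins2* (0.70) lie to the right, and the interval of *Gins3* holds 0. *Dtl* (-1.42), *Clspn* (-1.17), *Uhrf1* (-1.03), *Pola1* (-0.97) and *Tk1* (-0.88) lie to the left.

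Markers of other liver cells differed between the same libraries, and bulk RNA cannot separate fewer cells of a type from less RNA per cell. The defining hepatocyte genes were abundant in both, and 7 of the 8 listed lay within 1.5-fold, *Apoa1* being lower. Over all genes tested, 4.46% were higher and 7.29% lower. Of the 8 Kupffer cell and macrophage markers, all tested, 5 were lower and none higher, with summed normalized reads of 30092 and 19564. Of the 4 tested B cell markers, 3 were lower (670 and 296 summed over the 5 listed), as were both tested neutrophil markers (416 and 127 over 5), although *Cd79a* and *S100a8* among them reached the minimum in the control library alone. Of 6 T and NK cell markers (174 and 99.7 summed) only *Trbc2* was tested, and it reached the minimum in the control library alone (41.9 and 26.2, ratio interval -1.79 to 0.39). Of 6 endothelial markers 2 were lower, with sums of 9174 and 6668. Erythroid markers went the other way, with 7 of 8 higher and sums of 14050 and 27776, whereas of 3 tested erythroid precursor genes 2 were lower, with sums of 3615 and 3548, mostly *Tfrc*, and *Gata1* listed at 0 in both. Stellate (9027 and 9746) and cholangiocyte (2347 and 2026) markers had no call. The summed leukocyte markers were thus fewer in the iFIRKO library, as were the reads of *Dtl*, *Clspn*, *Uhrf1*, *Pola1* and *Tk1*. The summed erythroid markers were more, as were the reads of *Rrm2*, *Rfc4*, *Gins2* and *Gins3*. The part of these cells in the replication genes was not tested.

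The list was set beside other genes of the same pathway and beside genes of the neighbouring phases. Of 51 other replication genes, 47 were tested. Their median log2 fold change was 0.02, with 2 past 1.5-fold upward and 2 downward (4.26% each, against 4.46% and 7.29% of all genes tested). The higher ones were *Dbf4* (184 and 322 normalized reads, log2 fold change 0.79) and *Donson* (64.4 and 100, 0.60), and the lower ones were *Cdc7* (50.4 and 20.1, -1.17) and *Atad5* (149 and 98.0, -0.59). *Cdc7* is the kinase that fires licensed origins and *Dbf4* is its activating subunit, and *Cdc7* reached the minimum in the control library alone, so its place among the tested genes depended on its being higher there. *Donson* had a ratio interval from -0.01 to 1.35. Of the same list, *Shmt1* (12208 and 11632), which feeds thymidylate synthesis, and *Top1* (2309 and 2638), which relaxes DNA ahead of the fork, stayed within 1.5-fold.

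Mitotic genes had higher values in the same iFIRKO library. Of 25 tested, 18 passed 1.5-fold upward (72%, against 4.46% of all genes) and 0 downward, with a median of 0.93. *Ccnb1*, the cyclin of mitotic entry, had 129 and 555 normalized reads, a log2 fold change of 2.07. *Mki67*, the proliferation marker, had 739 and 1221 (0.72), and *Ccnf*, a ubiquitin ligase subunit that counts *Rrm2* protein among its known substrates, had 792 and 1176 (0.57). The lowest of the 25 was *Top2a* (749 and 836, 0.16), the topoisomerase that separates copied chromosomes. Of 19 G1/S genes, 3 were higher (15.8%, against 4.46% of all genes tested) and 1 lower (5.26%, against 7.29%), with a median of 0.06. The higher ones include *E2f2* (239 and 508, 1.08), an E2F activator, and the inhibitor *Cdkn1a* (2536 and 4508, 0.83), while *Ccnd2* (393 and 244, -0.68) was lower and *Ccnd1* had 3338 and 2262 (-0.56). No test of the difference between these lists is possible with 1 library per genotype, and the medians are a description. The lists were chosen with earlier results of these data known. The study had already reported mitotic genes such as *Ccnb1* and *Cdk1* as increased in iFIRKO liver, so the 72% is a description too.

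**Figure D4:**
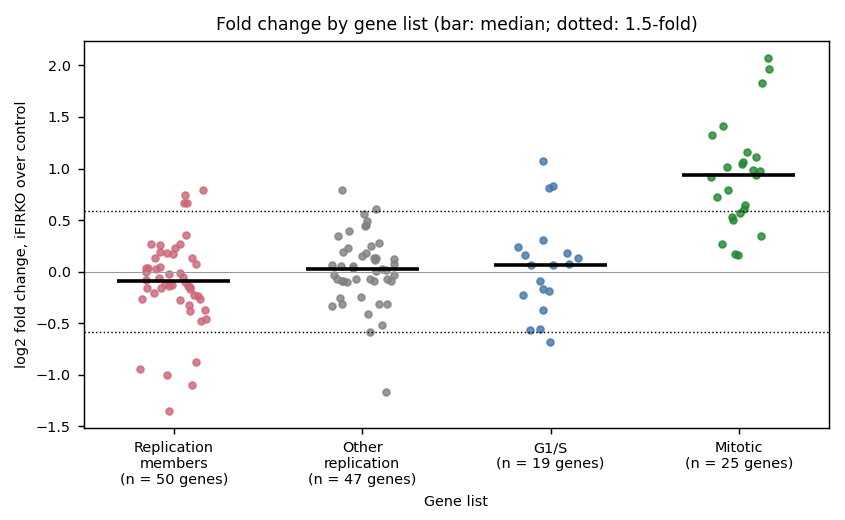
Log2 fold change of each tested gene (points, spread sideways for legibility) in 4 lists, with the median as a bar and dotted lines at 1.5-fold. The replication members (median -0.09), other replication genes (0.02) and G1/S genes (0.06) centre near 0, and the mitotic genes (0.93) lie above 0 throughout.

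Promoter letters, which the choice of genes did not use, were compared between the lists. RefSeq promoter windows on GRCm38, from 250 bases before to 50 bases after the start, were found for 43 of the 51 members and searched on both strands for the E2F motif in the spellings TTTCCCGC, TTTCGCGC, TTTGCCGC and TTTGGCGC. Spellings that overlap on opposite strands were counted once per gene. The motif was present for 18 of the 43 members (41.9%), against 4.50% of 9893 tested genes with a window and 5% of 20 mitotic genes. It was also present for 5 of 14 G1/S genes (35.7%) and 9 of 41 other replication genes (22.0%), so it is not particular to the members. The CHR motif TTTGAA, the cell cycle homology region of many G2 genes, was present for 5 of the 43 members (11.6%), for 15.1% of the tested genes and for 15 of the 20 mitotic genes (75%), beside 28.6% of the G1/S genes and 22.0% of the other replication genes. The CCAAT box was present for 62.8% of the members, 43.4% of the tested genes and 90% of the mitotic genes. Among members with a window the E2F motif occurred for 4 of the 5 lower genes, 1 of the 3 higher genes and 12 of the 34 genes within 1.5-fold, numbers too small to rank. A match is a run of letters and not a shown binding site.

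Up to 200 bases before the RefSeq start are printed 5′ to 3′ on the gene's strand, from GRCm38, as the longest stretch there without an annotated exon, and E2F matches on either strand are in capitals. They are the MCM ring genes with a match in that stretch, which were within 1.5-fold, the members past 1.5-fold with a match there, and *Rrm2*, a higher gene in which these spellings do not occur.
*Mcm5*, chr8:75109309-75109508, forward strand: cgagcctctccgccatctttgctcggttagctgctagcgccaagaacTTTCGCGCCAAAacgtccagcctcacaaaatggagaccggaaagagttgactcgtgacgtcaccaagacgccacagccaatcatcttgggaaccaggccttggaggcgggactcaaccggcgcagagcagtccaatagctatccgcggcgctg
*Mcm6*, chr1:128359706-128359905, reverse strand: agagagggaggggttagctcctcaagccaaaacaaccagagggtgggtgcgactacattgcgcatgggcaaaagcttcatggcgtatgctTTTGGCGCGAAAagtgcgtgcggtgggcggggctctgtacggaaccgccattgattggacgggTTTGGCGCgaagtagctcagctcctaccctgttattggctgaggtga
*Dtl*, chr1:191575545-191575635, reverse strand: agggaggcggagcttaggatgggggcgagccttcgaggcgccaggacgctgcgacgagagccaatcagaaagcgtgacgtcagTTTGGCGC
*Pola1*, chrX:93632156-93632355, reverse strand: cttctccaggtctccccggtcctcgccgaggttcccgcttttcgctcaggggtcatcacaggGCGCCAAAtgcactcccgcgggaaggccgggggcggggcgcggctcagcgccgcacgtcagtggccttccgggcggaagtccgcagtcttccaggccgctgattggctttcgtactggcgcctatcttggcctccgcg
*Uhrf1*, chr17:56304113-56304312, forward strand: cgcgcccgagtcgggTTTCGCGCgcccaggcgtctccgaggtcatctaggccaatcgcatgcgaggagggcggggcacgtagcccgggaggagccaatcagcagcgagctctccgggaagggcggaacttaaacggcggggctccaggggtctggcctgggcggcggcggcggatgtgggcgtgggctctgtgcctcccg
*Rrm2*, chr12:24708054-24708240, forward strand: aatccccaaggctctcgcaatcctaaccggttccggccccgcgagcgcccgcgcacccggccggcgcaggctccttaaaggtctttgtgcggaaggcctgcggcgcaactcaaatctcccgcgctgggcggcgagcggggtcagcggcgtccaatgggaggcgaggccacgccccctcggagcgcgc

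In *Mcm5* and *Mcm6*, matches on opposite strands overlap in 1 continuous run of 12 bases, which begins 153 and 110 bases before the start, and *Mcm6* has another match at 47 bases. In *Dtl*, the member with the lowest log2 ratio, the match ends at the base just before the start. The stretch of *Uhrf1* precedes the farther downstream of its 2 RefSeq starts and lies inside the annotated gene. The window of its other start, 16 bases from the 5′ end of the annotated gene, held no E2F match. Where a gene had several starts, the stretch with the most matches was printed. The same letters are thus found before a RefSeq start of genes that were within 1.5-fold (*Mcm5* and *Mcm6*) and genes that were lower (*Dtl*, *Pola1* and *Uhrf1*). The printed genes do not stand for all members past 1.5-fold. Among those not printed, the higher *Gins3* and the lower *Clspn* have a match in their windows. The higher *Rfc4* and the lower *Tk1* have none, as is the case for *Rrm2*.

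For contrast, the same kind of stretch is shown for the 2 mitotic genes of largest fold with a CHR match in it, here in capitals. These are *Cdc20*, the activator of the anaphase promoting complex (231 and 916 normalized reads), and *Ccnb2*, a cyclin partner of Cdk1 (140 and 296).
*Cdc20*, chr4:118437353-118437543, reverse strand: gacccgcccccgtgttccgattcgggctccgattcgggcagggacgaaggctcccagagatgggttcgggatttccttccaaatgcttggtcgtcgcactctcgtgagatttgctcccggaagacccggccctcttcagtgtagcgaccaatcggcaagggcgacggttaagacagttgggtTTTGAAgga
*Ccnb2*, chr9:70421555-70421754, reverse strand: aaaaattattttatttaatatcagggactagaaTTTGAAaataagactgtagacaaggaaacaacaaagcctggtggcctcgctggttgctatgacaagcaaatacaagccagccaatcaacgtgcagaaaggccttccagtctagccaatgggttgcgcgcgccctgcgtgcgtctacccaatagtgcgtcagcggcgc

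The CHR match begins 18 bases before the start of *Cdc20* and 167 bases before that of *Ccnb2*.

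**Figure D5:**
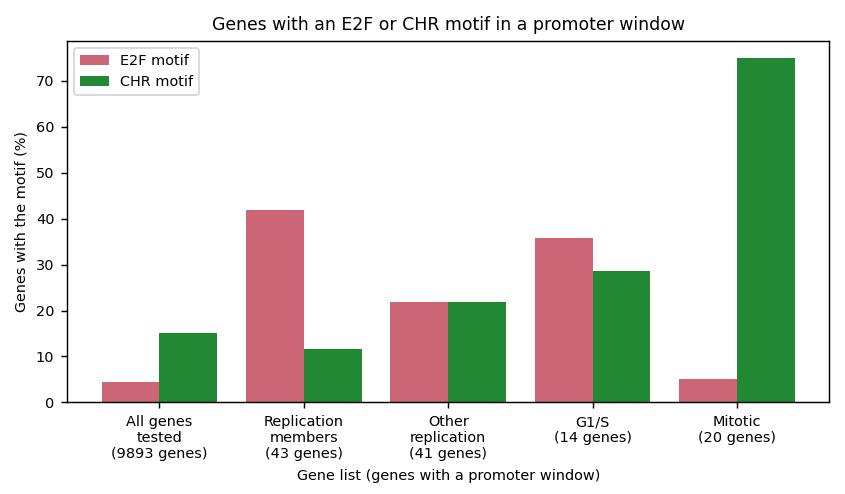
Percentage of genes with an E2F motif (red) or a CHR motif (green) in a RefSeq promoter window, for all tested genes and 4 lists, with the number of genes under each. The replication members have the highest E2F share (41.9%) and the mitotic genes the highest CHR share (75%).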

How the data were processed

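Stranded mRNA libraries (TruSeq kit, Illumina NovaSeq) of liver RNA were sequenced, 1 per genotype. Per the file header, the authors deposited normalized read counts, and the values are on a log2 scale, where a listed 0 stands for a scaled count at or below 1. The submitters' processing notes name mm10, the same assembly as GRCm38. The aligner, counting tool, annotation and normalization are not given in the sources used here.

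Each log2 value was converted back to normalized reads. The commonest low value (control 1.99, iFIRKO 2.01 normalized reads) was taken as 1 read pair, which put the depths at 21138484 and 20652740 pairs. Of the values under 12, 51.0% and 48.6% were whole pairs within 0.01, so depths and intervals are estimates. Exon length (the union over transcripts), overlaps and shared 50-base stretches came from GENCODE M21, promoter windows from RefSeq. That union can be longer than the transcript made in liver, so levels per kilobase and their spread within a complex depend on it. Where a symbol was repeated, its first row was used.

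The members, gene lists and settings were chosen with earlier results of these data known. Every member could be named, and of other lists the largest and smallest fold and the 2 highest levels. *Donson*, *Atad5*, *Cdc20*, *Ccnb2*, the overlapping genes, pseudogenes and the marker genes were named after their values were seen. The interval estimator was checked on simulated libraries. These were drawn as whole read pairs with counting error alone, as the interval assumes. The check therefore does not cover values that are not whole pairs or differences between animals. Alternatives were the pseudocount, the minimum, the scaling, the fold threshold and repeated symbols. The tools were scipy 1.17.1, pandas 2.3.3, numpy 2.4.6 and matplotlib 3.10.9 under Python 3.11.15. The miRNA sequencing of the study was not analysed here.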

Additional observations from a re-analysis of the deposited data

How the results depend on the processing

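How many members were higher turned on the limits set for scarce genes. There were 2 (*Rfc4* and *Rrm2*) with a pseudocount of 41.8 normalized reads or with a minimum of 209 normalized reads, 3 with the minimum in both libraries, where *Gins3* was not tested, and 0 with a fold above 2. The number of lower members was 3 with the minimum of 209 normalized reads, where *Dtl* and *Clspn* were not tested. It was 3 with a fold above 2 (*Dtl*, *Clspn* and *Uhrf1*), and 5 under the other settings run. Of all genes tested, 1.56% were higher and 1.99% lower with a fold above 2 (50 members tested). With the minimum of 209 normalized reads these shares were 2.84% and 4.34% (35 members tested). With the pseudocount of 41.8 normalized reads they were 2.77% and 4.30% (50 members tested). With the minimum in both libraries they were 3.43% and 5.57% (49 members tested). Over the alternatives the median log2 fold change of the members ran from -0.10 to -0.02 and the summed log2 ratio from -0.09 to -0.07. The medians ran from 0.01 to 0.04 for other replication genes, 0.05 to 0.07 for G1/S genes and 0.81 to 0.97 for mitotic genes. No single member left its interval or changed sign under the alternatives run. This outcome was largely fixed beforehand. The minimum and the repeated symbols leave the value of a tested member unchanged, and a pseudocount cannot change its sign. Another scaling shifted the log2 ratios by at most 0.01. No paired analysis was possible because there is only a control and an iFIRKO library. The interval of a tested member has a median width of 0.68 on the log2 scale. That of the scarce *Cdc6* was wider, from -0.98 to 0.69, so a 1.5-fold difference in *Cdc6* is not detectable at this depth.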
